A study of Mus musculus with 19 samples.

Results

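Levels of 10 autosomal genes of innate sensing were followed: the Toll-like receptors Tlr1, Tlr2, Tlr3, Tlr4, Tlr6, Tlr9 and Tlr12, the adaptor Myd88, the chaperone Unc93b1 and the co-receptor Cd14. They were chosen by gene symbol and are 10 of the 27179 genes in the expression table. Spleen cells came from mice of the 4 core genotypes (FCG) model, whose Y chromosome lacks Sry, the switch for testis development, while a transgenic copy on chromosome 3 supplies it independently of the sex chromosomes. The background was B6. Mice with ovaries or with testes therefore occur with XX as well as with XY chromosomes: XXF and XYF mice have ovaries, and XXM and XYM mice have testes. All 19 mice had received heat-killed Streptococcus pneumoniae (HKSP) 1 week earlier, and there was no group without it. The groups held 5 XXF (F1 to F5), 4 XYF (F6 to F9), 5 XXM (2, 5, 6, 7 and 8) and 5 XYM mice (12, 13, 15, 16 and 9). Red cells were lysed and bulk RNA of the splenocytes was sequenced, so each value is a mixture over all spleen cells. Neither the age of the mice nor whether their gonads had been left in place is stated in the records available.

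Toll-like receptors bind molecules of microbes and start inflammatory signalling in macrophages, dendritic cells, neutrophils and B cells. Tlr1, Tlr2, Tlr4 and Tlr6 work at the cell surface, where Tlr2 pairs with Tlr1 or Tlr6 to bind bacterial lipoproteins and Tlr4 binds lipopolysaccharide with the help of Cd14. Tlr3, Tlr9 and Tlr12 work in endosomes, where they bind double-stranded RNA, unmethylated CpG DNA and profilin of protozoa; Unc93b1 carries endosomal receptors there from the endoplasmic reticulum, and Myd88 passes on the signal of nearly every member of the family except Tlr3.

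The library sizes, inferred from the deposited values, lay between 11263753 and 19962022 reads. The deposited unit is log2 of RPKM plus 1, where RPKM counts reads relative to gene length and library size. Levels of different genes are compared below in RPKM, and differences between groups are on the log2 scale. The labels were checked with sex-linked genes. Xist, the RNA that silences an X chromosome, had 5823 to 12998 reads in the 10 XX mice and 2 to 17 in the 9 XY mice. Sry had 0 reads in each female mouse and a mean level of 2.18 RPKM in XXM and 3.74 RPKM in XYM mice. On the Y chromosome, Uty, Kdm5d, Eif2s3y and Ddx3y had at least 295 reads in every XY mouse and between 0 and 3 in XX mice. The spleen label was checked with markers of 11 cell types. The most abundant were Cd79b for B cells (mean 865 RPKM), Cd3g for T cells (168), Jchain for plasma cells (957), Lyz2 for monocytes and macrophages (1137) and S100a9 for neutrophils (4978). Smaller levels were found for Klrk1 of NK cells (18.6 RPKM), Itgax of conventional dendritic cells (18.1), Siglech of plasmacytoid dendritic cells (12.5) and Ppbp of platelets (29.5). Red cell RNA was present despite lysis, with Hba-a1 at 3322 RPKM. The stromal collagen genes Col1a1 and Col3a1 had 0 reads in 3 mice each, and Pecam1 was the most abundant gene of that list at 63.4 RPKM.

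Several libraries stood apart in their marker levels, and they were picked out after the data had been seen. The summed level of 9 neutrophil markers was 47847 RPKM in XYF F9 and 49201 in XYM 9, against 2746 to 15766 in the other 17 mice. Those mice also had the highest sums of 9 monocyte and macrophage markers, at 3901 and 3749 RPKM against 999 to 2242. The erythroid sum was 16272 RPKM in XYF F6 and 13262 in XYF F9, and at most 5930 in the rest. Whether these differences moved the 10 genes was not tested, and fewer cells of a type and less RNA per cell cannot be told apart in bulk RNA.

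**Figure D1:**
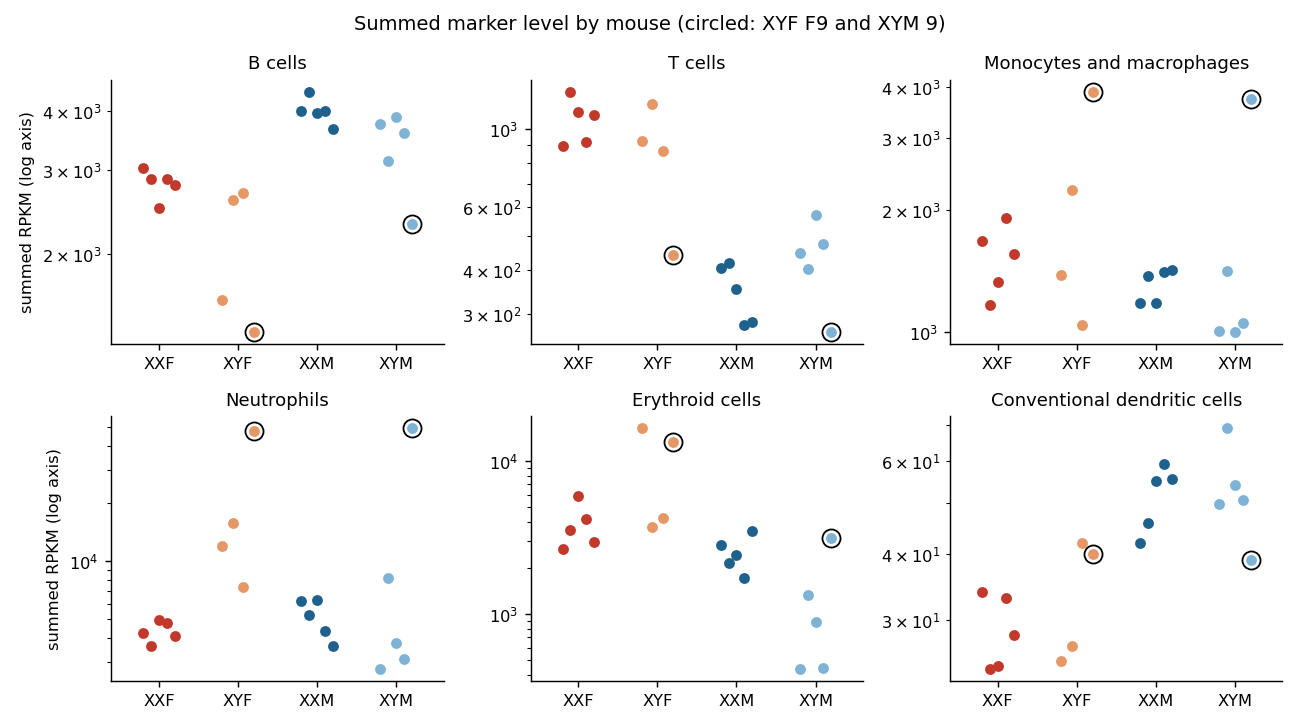
Summed RPKM of marker genes (log axis) for 6 cell types, with each point a mouse and columns for the 4 groups. XYF F9 and XYM 9, circled, lie above the other 17 mice for neutrophils and for monocytes and macrophages.

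Libraries also differed in how long genes compared with short ones. For each mouse, the median log2 deviation of the 3547 longest genes from their means over all mice was taken, and that of the 3547 shortest genes subtracted. The trend was 0.19, -0.39, -0.39, 0.02 and -0.04 in XXF F1 to F5 and -0.41, -0.42, -0.13 and 0.04 in XYF F6 to F9. It was -0.40, -0.18, 0.07, 0.11 and 0.23 in XXM 2, 5, 6, 7 and 8 and 0.51, 0.42, -0.04, 0.56 and 0.22 in XYM 12, 13, 15, 16 and 9. Long genes therefore stood relatively high in XYM 12, 13 and 16 and low in XXF F2 and F3, XYF F6 and F7 and XXM 2. The mean trend was 0.57 higher in XYM than in XYF mice (exact two-sided permutation p = 0.0238, with 126 splits and a smallest possible p of 0.00794). The other pairs of groups gave exact p values of 0.0556 (XXM minus XYM, -0.37), 0.492 (XXF minus XYF, 0.11) and 0.595 (XXM minus XXF, 0.09). Long genes here had at least 3882 bases and short ones at most 1353; of the 10 genes only Tlr3, at 4327 bases, belongs to either set. What sets this trend was not tested, and it was measured after the values had been seen.

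All 10 genes were expressed, at or over 0.5 RPKM in 19 of 19 mice, and all 10 passed the filter that left 14186 genes for testing. Unc93b1 was the most abundant, with a mean of 204 RPKM over the mice, followed by Tlr1 (47.2) and Myd88 (40.1). Tlr9 (15.3 RPKM), Cd14 (11.5), Tlr2 (8.13) and Tlr4 (6.91) came next. Tlr6 (4.73), Tlr12 (3.85) and Tlr3 (2.93) were lowest. The gaps around Unc93b1 were wide: its lowest mouse, at 132 RPKM, lay above the highest value of Tlr1, 76.8 RPKM. Tlr1 and Myd88 lay close, at 25.4 to 76.8 and 32.5 to 53.4 RPKM, and Tlr9, Cd14, Tlr2 and Tlr4 also had overlapping ranges, as had Tlr6, Tlr12 and Tlr3. The fewest reads behind a value were 71, for Tlr3, and the most were 10322, for Unc93b1.

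The genes differed in how much they varied between mice of 1 group. The within-group standard deviation (SD) of log2 Tlr9 was 0.92 in XXF, 0.63 in XYF, 0.48 in XXM and 0.73 in XYM mice, the largest of the 10 genes in XXF, XXM and XYM. Cd14 had the largest in XYF mice, 0.78. Myd88 was the steadiest in XXF mice, with an SD of 0.05, and Unc93b1 in XXM mice, with 0.07.

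**Figure D2:**
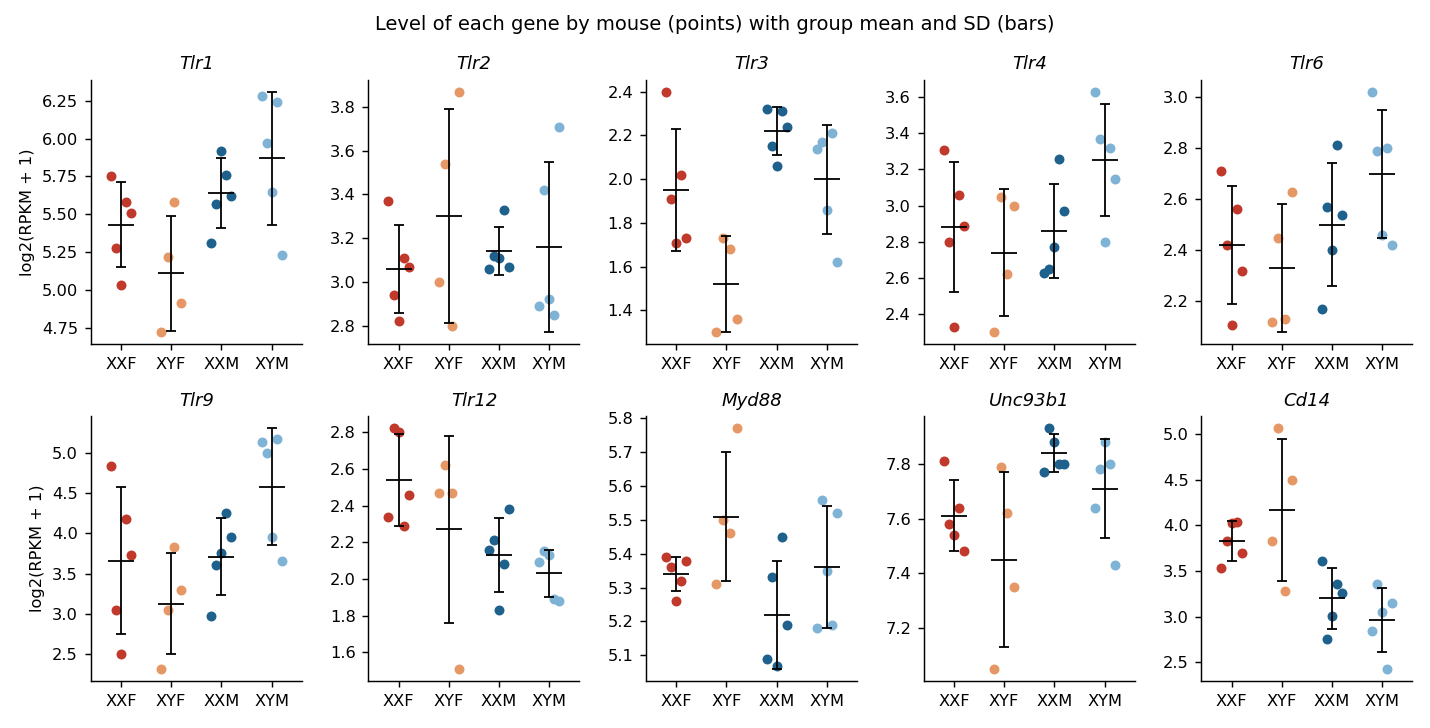
Log2(RPKM + 1) of the 10 genes in each mouse (points) of the 4 groups, with group means and SD (bars). The groups overlap for every gene in each pair that differs in chromosomes or in gonads alone; Tlr9 and Tlr1 are highest and Cd14 lowest among XYM mice.

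Tlr9, the endosomal receptor for CpG DNA, varied most. Its level was 27.6, 7.29, 4.62, 17.1 and 12.3 RPKM in XXF F1 to F5 and 3.96, 7.29, 13.2 and 8.87 RPKM in XYF F6 to F9. It was 6.82, 11.2, 12.6, 18 and 14.5 RPKM in XXM 2, 5, 6, 7 and 8 and 34.1, 30.9, 14.5, 35.3 and 11.5 RPKM in XYM 12, 13, 15, 16 and 9. The 3 highest values of all mice were those of XYM 12, 13 and 16, while XYM 15 and 9 lay among the XXM mice and XXF F1 came close to the top. On the log2 scale the group means were 3.66 ± 0.92 (SD, n = 5) in XXF, 3.12 ± 0.63 (n = 4) in XYF, 3.71 ± 0.48 (n = 5) in XXM and 4.58 ± 0.73 (n = 5) in XYM mice.

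Tlr1, which binds triacylated lipoproteins together with Tlr2, followed a similar order over the mice. Its level was 52.6, 38, 31.8, 46.7 and 44.5 RPKM in XXF F1 to F5 and 25.4, 36.3, 46.9 and 29.1 RPKM in XYF F6 to F9. It was 38.8, 46.5, 59.6, 53.3 and 48.3 RPKM in XXM 2, 5, 6, 7 and 8 and 76.8, 61.8, 49.2, 74.5 and 36.4 RPKM in XYM 12, 13, 15, 16 and 9. XYM 12, 13 and 16 were again the highest of all mice, and XYM 9 lay within the range of the XYF mice. The log2 means were 5.43 ± 0.28, 5.11 ± 0.38, 5.64 ± 0.23 and 5.87 ± 0.44 in XXF, XYF, XXM and XYM mice.

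Cd14, the lipopolysaccharide co-receptor of macrophages and monocytes, ran the other way. Its level was 10.5, 13.2, 15.4, 15.4 and 12 RPKM in XXF F1 to F5 and 13.2, 32.4, 8.7 and 21.7 RPKM in XYF F6 to F9. It was 11.2, 5.76, 7.07, 9.24 and 8.56 RPKM in XXM 2, 5, 6, 7 and 8 and 6.14, 9.27, 7.29, 4.39 and 7.85 RPKM in XYM 12, 13, 15, 16 and 9. XYF F7 and F9 were highest, every male mouse except XXM 2 lay below every XXF mouse, and the low XYF F8 made the XY groups overlap. The log2 means were 3.83 ± 0.22, 4.17 ± 0.78, 3.20 ± 0.33 and 2.96 ± 0.35 in XXF, XYF, XXM and XYM mice.

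Tlr2, the shared partner of Tlr1 and Tlr6, was highest in libraries that stood apart. Its level was 9.31, 6.69, 6.07, 7.63 and 7.42 RPKM in XXF F1 to F5 and 7, 10.6, 5.98 and 13.6 RPKM in XYF F6 to F9. It was 7.34, 7.67, 7.63, 9.05 and 7.41 RPKM in XXM 2, 5, 6, 7 and 8 and 6.44, 9.72, 6.56, 6.23 and 12.1 RPKM in XYM 12, 13, 15, 16 and 9. XYF F9 and XYM 9, the mice with high neutrophil and monocyte markers, had the highest Tlr2 of all, and the 4 groups overlapped throughout.

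The other 6 genes are given by their ranges and means. Tlr3, the receptor for double-stranded RNA, lay between 1.46 and 4.28 RPKM, with log2 means of 1.95 ± 0.28, 1.52 ± 0.22, 2.22 ± 0.11 and 2.0 ± 0.25 in XXF, XYF, XXM and XYM mice. Tlr4, the lipopolysaccharide receptor, lay between 3.92 and 11.3 RPKM (log2 means 2.88, 2.74, 2.86 and 3.25), and Tlr6, which binds diacylated lipoproteins with Tlr2, between 3.32 and 7.09 RPKM (2.42, 2.33, 2.5 and 2.7). Tlr3 was lowest in XYF mice, and Tlr4 and Tlr6 were highest in XYM mice. Tlr12, which senses profilin in mice, lay between 1.85 and 6.08 RPKM (log2 means 2.54, 2.27, 2.13 and 2.03). Myd88 lay between 32.5 and 53.4 RPKM (5.34, 5.51, 5.22 and 5.36) and Unc93b1 between 132 and 243 RPKM (7.61, 7.45, 7.84 and 7.71).

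Testes were compared with ovaries among XY mice to ask what differs with gonadal sex when the sex chromosomes are alike. Tlr9 and Tlr1 were higher and Cd14 was lower in XYM than in XYF mice, so that 3 of the 10 genes passed both thresholds, an adjusted p under 0.1 and a difference of more than 1.5-fold in either direction. In this comparison 15.8% of all tested genes passed (2236 of 14186), and 3 of 10 has to be read against that wide background. Tlr9 was 1.46 higher on the log2 scale (standard error, SE, 0.44; 95% interval 0.54 to 2.38; 2.75-fold; adjusted p = 0.0218). All 5 XYM mice lay above the XYF mean and 4 of 5 above every XYF mouse. Tlr1 was 0.76 higher (SE 0.21; 0.32 to 1.21; 1.7-fold; adjusted p = 0.0155), also with 5 of 5 above the mean and 4 of 5 above every XYF mouse. Cd14 was -1.20 different (SE 0.28; -1.78 to -0.62; 0.434-fold; adjusted p = 0.0066), with 5 of 5 XYM mice below the mean and 4 of 5 below every XYF mouse. limma-voom on recovered reads called these 3 genes and Tlr3, beside 20.6% of all genes.

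Further members had small differences in the same comparison. By an adjusted p under 0.1 alone, 6 of the 10 genes passed in limma, beside 39.9% of all genes. Tlr3 (0.48, adjusted p = 0.0272), Tlr4 (0.51, adjusted p = 0.0668) and Tlr6 (0.36, adjusted p = 0.092) had an adjusted p under 0.1 but did not reach the fold threshold; for each, all 5 XYM mice lay above the XYF mean. Tlr3, the lowest of the 10 genes, passed both thresholds where less was added before the logarithm (0.66, adjusted p = 0.024, with a pseudocount of 0.1) and by limma-voom (0.66, adjusted p = 0.0297). Unc93b1 was 0.25 higher (adjusted p = 0.143), and the differences of Tlr2 (-0.14), Tlr12 (-0.24) and Myd88 (-0.15) had intervals that included 0. XYF F9 had the lowest Tlr12 of the XYF mice (log2 1.51, against 2.47 for the next), which drew that difference towards 0. Surface and endosomal receptors were thus found on both sides of 0: 6 of the 10 differences were above it, with a median of 0.31 beside 0.02 over all genes tested. Tlr4 passed both thresholds with array weights (0.65, adjusted p = 0.0177, beside 19.2% of all genes) and without XYF F7 (0.61, adjusted p = 0.053), XYF F9 (0.60, adjusted p = 0.0529) or XYM 15 (0.62, adjusted p = 0.0295). Without XYF F9 and XYM 9 together, a setting added after the data were seen, 4 genes passed (Tlr1, Tlr4, Tlr9 and Cd14), beside 22.1% of all genes. The background itself fell to 9.83% of genes without XYF F6, and the same 3 members passed there.

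The length trend moved with this comparison. When it entered the limma fit as a covariate, also added after the data were seen, 0 of the 10 genes passed in XYM against XYF mice, beside 5.43% of all genes. The difference of Tlr9 was then 0.07 (adjusted p = 0.911), that of Tlr1 0.27 (adjusted p = 0.482) and that of Cd14 -0.91 (adjusted p = 0.136). Tlr4 (-0.03) and Tlr6 (-0.02) changed sign. Since XYM and XYF mice themselves differed in the trend, what belongs to the trend and what to the groups cannot be told apart for Tlr9 and Tlr1.

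**Figure D3:**
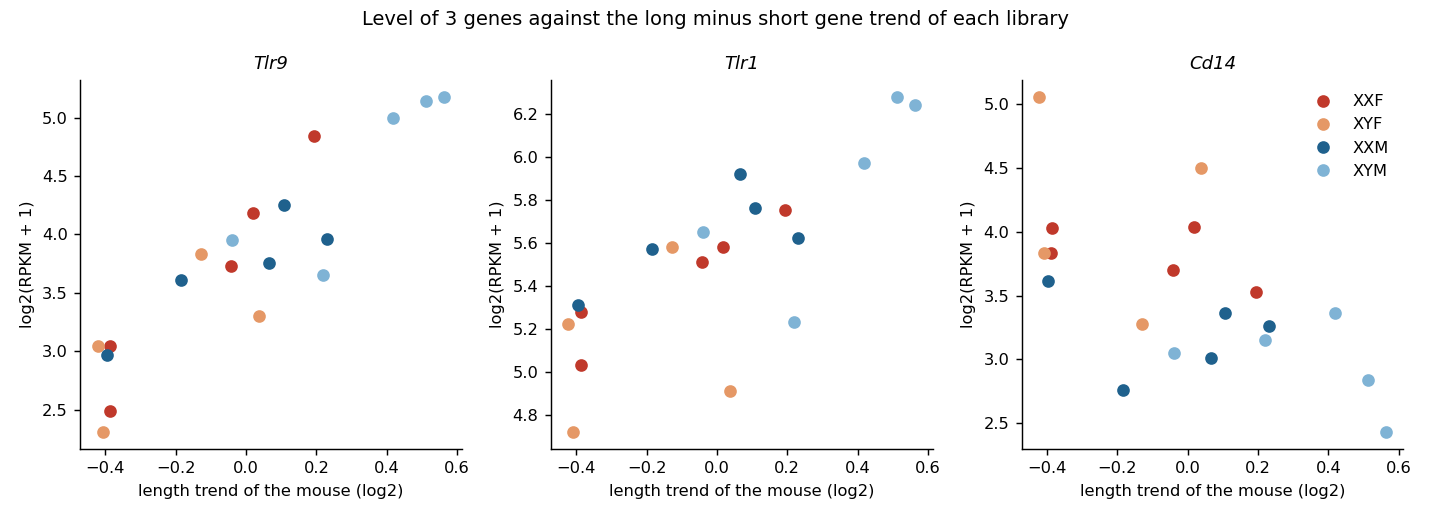
Log2(RPKM + 1) of Tlr9, Tlr1 and Cd14 against the length trend of each library (long minus short genes, log2), with each point a mouse coloured by group. Tlr9 and Tlr1 rise along the trend, on which XYM 12, 13 and 16 lie farthest to the right.

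Marker genes differed between the same groups. B cell markers were higher in XYM than in XYF mice (7 of 8 passed, median 0.83), and T cell markers were lower (6 of 7, median -0.79). The summed B cell level was 1594, 2590, 2690 and 1364 RPKM in XYF F6 to F9 and 3758, 3134, 3894, 3603 and 2313 RPKM in XYM 12, 13, 15, 16 and 9. Erythroid (5 of 5, median -2.25) and platelet markers (4 of 4, -0.77) were lower, and 3 of 6 conventional dendritic cell markers were higher (median 0.53). Of the monocyte and macrophage markers 1 of 9 was lower (median -0.45), and 0 of 9 neutrophil markers passed in limma, with 1 at an unadjusted p under 0.05, beside 42.4% of all genes (median -0.68). Of the remaining lists, plasma cells had 1 of 6 lower, NK cells 1 of 4 higher (median 0.40), plasmacytoid dendritic cells 1 of 4 higher and stroma 0 of 1, with 0 at an unadjusted p under 0.05. B cells and dendritic cells are known to express Tlr9, and monocytes to express Cd14; the part of cell composition in the differences of these genes was not tested.

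**Figure D4:**
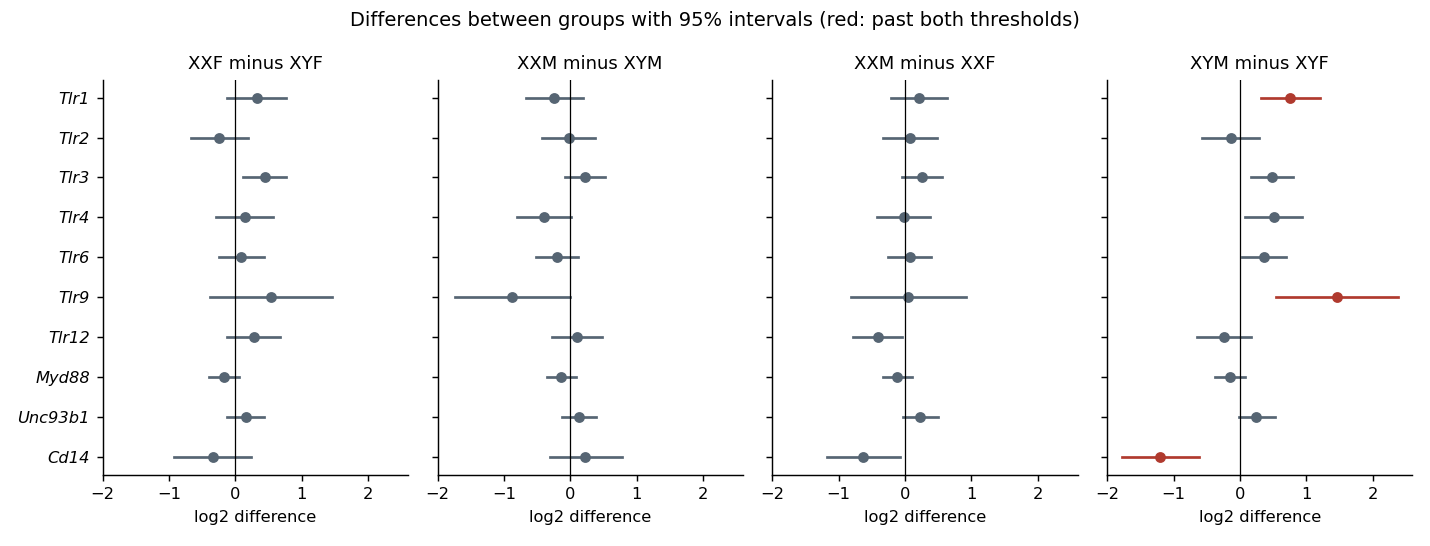
Log2 differences of the 10 genes with 95% intervals in the 4 pairs of groups (red: past both thresholds). Tlr9, Tlr1 and Cd14 pass in XYM minus XYF, where they are 1.46, 0.76 and -1.20, and no gene passes in the other 3 pairs.

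Among XX mice, testes against ovaries gave 0 of 10 genes past both thresholds in limma, beside 4.22% of all genes. At an unadjusted p under 0.05 there were 2, beside 19.8% of all genes, and both were lower in XXM mice: Cd14 (-0.63, 95% interval -1.17 to -0.08, unadjusted p = 0.027 and adjusted p = 0.18 by limma) and Tlr12 (-0.41, adjusted p = 0.198). All 5 XXM mice had less Cd14 than the XXF mean and 4 of 5 less than every XXF mouse. Cd14 passed in 3 of 34 alternatives: with only the groups compared (-0.63, adjusted p = 0.035), with array weights (-0.67, adjusted p = 0.0437) and without XYF F7 (-0.63, adjusted p = 0.0996), a mouse of neither group that enters through the shared spread. Tlr3 had the highest difference, 0.26, and Tlr9 (0.05) and Tlr1 (0.21) had intervals that included 0. limma-voom on recovered reads also gave 0, beside 5.67% of all genes. The median was 0.06, beside -0.01 over all genes. T cell markers were lower in XXM mice (7 of 7, median -1.72), with a summed level of 280 to 418 RPKM against 895 to 1271 RPKM in XXF mice, and 3 of 6 conventional dendritic cell markers were higher (median 0.59). B cells (1 of 8 higher, median 0.49), plasmacytoid dendritic cells (2 higher and 1 lower of 4) and the other lists (0 passing each) completed the count.

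Averaged over XX and XY, males and females differed in 2 of the 10 genes, beside 7.32% of all genes. Cd14 was lower in males by the clearest margin of the 10 genes (-0.91, SE 0.19, 95% interval -1.31 to -0.52, 0.53-fold, adjusted p = 0.00249). It stayed past both thresholds under every alternative tried, with differences from -1.06 to -0.75 and -0.75 (adjusted p = 0.0343) with the length trend as a covariate. Tlr9 was 0.76 higher in males (SE 0.30, 0.12 to 1.39, 1.69-fold, adjusted p = 0.0669). That call was lost without any of 8 mice: XXF F2 (0.68), XXF F3 (0.61), XYF F6 (0.62), XXM 7 (0.69), XXM 8 (0.72), XYM 12 (0.69), XYM 13 (0.70) and XYM 16 (0.68), with adjusted p values from 0.103 to 0.154. With the length trend as a covariate the difference of Tlr9 was -0.04 (adjusted p = 0.909). Below the fold threshold, Tlr1 (0.49, adjusted p = 0.0206), Tlr3 (0.37, adjusted p = 0.0145), Unc93b1 (0.24, adjusted p = 0.0498) and Tlr12 (-0.33, adjusted p = 0.0661) had an adjusted p under 0.1. Tlr12 and Cd14 were thus the members that were lower in males at this threshold. It was reached by 6 of the 10 genes, beside 38.5% of all genes. With the length trend as a covariate Tlr1 was 0.2 (adjusted p = 0.345) and Tlr3 0.25 (adjusted p = 0.155). Over the alternatives the adjusted p of Unc93b1 reached 0.158 and that of Tlr12 0.558. The median of the 10 genes was 0.23, beside 0.02 over all genes, and limma-voom also called 2 genes, beside 12.1%. The male comparisons share mice with each other, since this average holds the same XXF, XYF, XXM and XYM mice. B cell markers were higher in males (6 of 8, median 0.67), T cell (6 of 7, -1.35) and erythroid markers (5 of 5, -1.52) were lower, and 3 of 6 conventional dendritic cell markers were higher. Of the monocyte and macrophage markers 1 of 9 was lower (median -0.31), plasmacytoid dendritic cells had 1 higher and 1 lower of 4, and the other lists had 0.

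XX and XY mice were compared within each gonadal sex to ask what goes with the sex chromosomes. Among mice with ovaries 0 of the 10 genes passed in limma, beside 1.38% of all genes, and limma-voom gave 0, beside 1.71%. At an unadjusted p under 0.05 there was 1, beside 18.7% of all genes. That gene was Tlr3, 0.44 higher in XXF mice (95% interval 0.12 to 0.76, unadjusted p = 0.0102 and adjusted p = 0.161 by limma). Tlr9 (0.53, -0.39 to 1.45, adjusted p = 0.509) had the highest and Cd14 (-0.34, -0.92 to 0.24, adjusted p = 0.505) the lowest difference, both with intervals that included 0. With 1 mouse left out, Tlr9 ran from 0.24 to 0.83 and Cd14 from -0.64 to -0.04. Of the 10 differences 7 were above 0, with a median of 0.15 beside 0.06 over all genes. The background share ran from 0.395% without XYF F9 to 5.99% without XYF F7, with 0 members in either case. NK cell markers were higher in XXF mice (3 of 4, median 1.30), neutrophil markers had a median of -1.93 with 0 of 9 passing (7 at an unadjusted p under 0.05), and B cells (1 of 8 higher), macrophages (1 of 9 higher), plasma cells (1 of 6 lower) and platelets (1 of 4 lower) had single changes, with 0 passing in the remaining lists.

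Among mice with testes, 0 of the 10 genes passed as well, beside 2.96% of all genes, and 0 by limma-voom, beside 2.81%. At an unadjusted p under 0.05 there was 1, beside 27.1% of all genes. Tlr9 was -0.87 in XXM minus XYM (95% interval -1.74 to -0.01, unadjusted p = 0.0485 and adjusted p = 0.182 by limma), with 5 of 5 XXM mice below the XYM mean and 2 of 5 below every XYM mouse. With the length trend as a covariate this difference was 0.03, and that of Tlr1 went from -0.24 to 0.09. Cd14 had the highest difference, 0.23 (-0.31 to 0.78). The median was -0.08, beside 0.01 over all genes. The background share was 0.36% without XXM 2 and 8.55% without XYM 15, with 0 members in both. T cell markers (3 of 7 lower, median -0.30), macrophages (1 of 9 higher and 1 lower), B cells, NK cells, plasmacytoid dendritic and erythroid cells (1 higher each) and the other lists (0 passing) held the marker changes.

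Averaged over gonadal sex, 0 of the 10 genes passed between XX and XY mice in limma, beside 1.72% of all genes, and limma-voom also gave 0, beside 2.76%. Tlr3 was 0.33 higher in XX mice (SE 0.10, 95% interval 0.11 to 0.55, 1.25-fold, adjusted p = 0.0924), and stayed short of the fold threshold. It was the 1 member with an unadjusted p under 0.05, beside 22.8% of all genes. Without XYF F9 and XYM 9 together Tlr3 was 0.25 (adjusted p = 0.267). Tlr9 was -0.17 (-0.80 to 0.46), and 0.15 with the length trend as a covariate. With 1 mouse left out Tlr9 ran from -0.32 to -0.02. The median was -0.05, beside 0.03 over all genes. The background was 3.65% without XYF F7, 2.88% without XYM 15 and 1.04% without XYF F9, with 0 members each. NK cell markers were higher (3 of 4, median 0.98) and 2 of 9 neutrophil markers lower (median -1.17) in XX mice, with 1 of 8 B cell markers higher and 1 of 9 macrophage markers in each direction, and 0 passing in the remaining lists.

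The difference between the XX minus XY effects of females and males was tested directly. Of the 10 genes 0 passed in limma, beside 0.0846% of all genes (12), and 0 by limma-voom, beside 0.0282%. At an unadjusted p under 0.05 there was 1, while 2979 of all 14186 genes reached that level. It was Tlr9, whose effect was 1.41 larger in females (SE 0.60, 95% interval 0.14 to 2.67, unadjusted p = 0.031 and adjusted p = 0.196). It adds a difference of 0.53 among mice with ovaries to that of -0.87, with its sign turned, among mice with testes. Tlr9 and Tlr4 passed with array weights, where 13.5% of all genes passed. Tlr9 also passed without XXF F3 (1.70, adjusted p = 0.089) or XYM 9 (1.64, adjusted p = 0.0883), where 8.44% and 11.9% of all genes passed. Tlr1 also passed without XYM 9. The share of all genes was 5.28% without XYF F8 and 5.7% without XYM 15, and 0.0493% or less without XXF F1, F2, F4 or F5, XYF F6 or F9, XXM 2 or 6 or XYM 12, 13 or 16. With the length trend as a covariate the difference was 0.23 (adjusted p = 0.794). With 1 mouse left out, the value of Cd14 ran from -0.87 to -0.28 and the median of the 10 genes from 0.11 to 0.29. In the main fit Cd14 had the lowest value, -0.58 (-1.37 to 0.22), and the median was 0.20, beside 0.02 over all genes. The same value compares testes minus ovaries between XY and XX mice, so differing effects of gonadal sex in XY and XX mice were not shown for Tlr9 (adjusted p = 0.196), Tlr1 (adjusted p = 0.274) or Cd14 (adjusted p = 0.37), and for Cd14 both differences lay below 0. Of the 63 marker genes tested 0 passed in limma, with 10 at an unadjusted p under 0.05.

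Within groups, several of the genes went up and down together from mouse to mouse. After removal of group means, 8 of 45 pairs had an adjusted p under 0.05, all with r above 0, while the median r of all pairs was 0.19. Tlr1 and Tlr9 went together with r = 0.88 (rho = 0.90, permutation p = 2e-05, adjusted p = 0.00045), and so did Tlr4 and Tlr6 with the same r, rho and p. Without the 2 mice farthest from the median, XYF F6 and XYM 12, r was 0.86 for each pair. Tlr9 also went with Tlr4 (r = 0.79), Tlr3 (0.75) and Tlr6 (0.75), and Tlr3 with Tlr1 (0.72) and Unc93b1 (0.67), with adjusted p values from 0.00697 to 0.0379. For Tlr3 and Unc93b1 the adjusted permutation p of rho was 0.0569. Tlr2 and its adaptor Myd88 formed a pair of their own (r = 0.77, rho = 0.81, permutation p = 0.00062, adjusted p = 0.00697), with r = 0.63 without XYF F9 and XYM 9. Tlr2 and Cd14 had r = 0.57 (adjusted p = 0.252), and Tlr2 and Tlr12 the lowest r, -0.54, which was -0.12 without XYF F9 and XYM 9. The count was 5 without XXF F1, XYM 16 or XYM 9, and the smallest p that permutations could give was 1e-05.

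**Figure D5:**
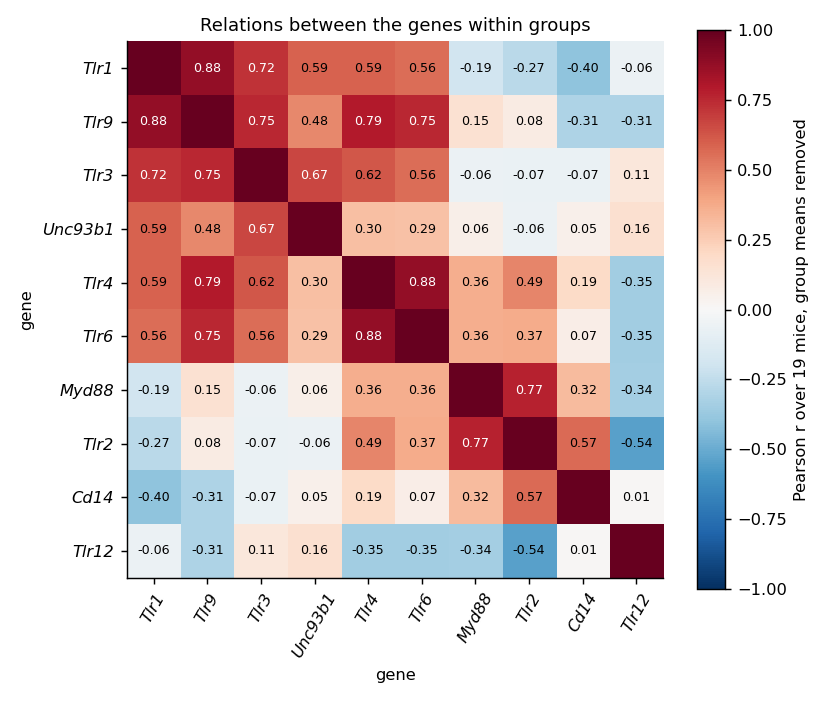
Pearson r between the 10 genes over 19 mice after removal of group means (red above 0, blue below 0). Tlr1, Tlr9, Tlr3, Tlr4 and Tlr6 form a red block, and Tlr2 and Myd88 a pair with r = 0.77.

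Single members were also related to properties of the libraries. Members were set against the length trend and the summed markers of 11 lists, chosen after the data were seen. By Pearson r, 18 of 120 relations had an adjusted p under 0.05. Not all of these held by Spearman rho, and where its adjusted permutation p was over 0.05 it is given. Tlr9 went with the length trend (r = 0.85, rho = 0.81, permutation p = 0.0001, adjusted p = 0.006; r = 0.82 without XYM 12 and 16), and so did Tlr4 (r = 0.73, adjusted p = 0.0283), Tlr6 (0.70, 0.0413) and Tlr1 (0.64, 0.0476). For Tlr1 and the length trend the adjusted p of rho was 0.0764. Tlr2 went with the monocyte and macrophage sum (r = 0.91, rho = 0.90, permutation p = 0.00018, adjusted p = 0.0072), and r was 0.85 without XYF F9 and XYM 9. Its relation to the neutrophil sum was r = 0.81 (adjusted p = 0.0296, by rho 0.0569), and r was 0.63 without those mice. Tlr2 thus rose with the myeloid markers, while its relation to the length trend was weak (r = 0.24, adjusted p = 0.493). Cd14 had r = 0.50 with the monocyte and macrophage sum (adjusted p = 0.306) and -0.29 with the length trend (adjusted p = 0.393).

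Further relations tied the receptors to other cell types. Tlr1 fell as erythroid markers rose (r = -0.82, adjusted p = 0.0158) and rose with NK cell markers (r = 0.76, adjusted p = 0.0283, by rho 0.0569). Tlr3 also fell with the erythroid sum (r = -0.69, adjusted p = 0.0485, by rho 0.0774). Tlr9 rose with conventional dendritic cell markers (r = 0.76, adjusted p = 0.0096) and fell with plasma cell markers (r = -0.73, adjusted p = 0.0476, by rho 0.0569). Tlr4 (-0.68) and Tlr6 (-0.64) fell with plasma cell markers too, whereas Tlr12 rose with them (0.60, adjusted p = 0.031, by rho 0.0784). These opposite relations to plasma cell markers stood beside r = -0.31 between Tlr12 and Tlr9 themselves (adjusted p = 0.411). Without XYF F9 and XYM 9 that r was -0.54, and r between Tlr12 and plasma cell markers was 0.78. Tlr12 and Tlr3 had r = 0.11 (adjusted p = 0.918). The stromal sum is nearly all Pecam1, an endothelial gene that leukocytes express too. It went with Tlr1 (0.89), Tlr9 (0.74), Unc93b1 (0.70) and Tlr3 (0.68, adjusted p by rho 0.0569). Which of these properties moves a gene was not tested, since they also vary with each other from mouse to mouse.

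The sequences before the starts of Tlr1 and Tlr9 are shown because these genes moved closely together, and those of Myd88 and Tlr2 because they formed a pair apart; Tlr4, which moved as closely with Tlr6, is not among the genes matched. They are the 250 bases before each start from RefSeq for build GRCm38.p6, written 5′ to 3′ on the strand of the gene. Promoters were used for 7 of the 10 genes, 9 promoters in all, and none for Tlr4, Unc93b1 and Cd14. Capitals mark matches on either strand to the PU-box of the myeloid and B cell factor Spi1 (GAGGAA), the interferon-stimulated response element (ISRE, a repeat of GAAA with a gap of 2 bases), the cyclic AMP response element (TGACGTCA) or the TATA box (TATAAA). The Tlr9 promoter is at chr9:106222348-106222597 (plus strand), and those of Tlr1 are at chr5:64933559-64933808 and chr5:64932700-64932949 (minus strand).
Tlr9: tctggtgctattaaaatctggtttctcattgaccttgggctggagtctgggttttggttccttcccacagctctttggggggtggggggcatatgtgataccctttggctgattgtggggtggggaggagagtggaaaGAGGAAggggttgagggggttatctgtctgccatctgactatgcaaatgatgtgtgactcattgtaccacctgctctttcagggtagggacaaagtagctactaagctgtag
Tlr1, first: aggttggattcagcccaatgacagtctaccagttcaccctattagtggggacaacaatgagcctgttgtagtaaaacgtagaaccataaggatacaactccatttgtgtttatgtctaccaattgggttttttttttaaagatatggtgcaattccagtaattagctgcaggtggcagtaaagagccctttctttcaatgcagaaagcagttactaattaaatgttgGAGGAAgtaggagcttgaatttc
Tlr1, second: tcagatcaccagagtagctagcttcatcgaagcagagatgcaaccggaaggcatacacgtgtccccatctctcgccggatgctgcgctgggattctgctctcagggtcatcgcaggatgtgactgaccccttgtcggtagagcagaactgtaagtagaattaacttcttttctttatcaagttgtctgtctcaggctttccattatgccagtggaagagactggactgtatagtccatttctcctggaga
Myd88: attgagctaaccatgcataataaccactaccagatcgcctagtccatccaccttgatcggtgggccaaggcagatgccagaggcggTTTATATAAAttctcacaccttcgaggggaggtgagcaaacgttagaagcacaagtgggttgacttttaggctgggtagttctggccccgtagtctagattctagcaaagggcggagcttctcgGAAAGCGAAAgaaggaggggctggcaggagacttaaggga
Tlr2: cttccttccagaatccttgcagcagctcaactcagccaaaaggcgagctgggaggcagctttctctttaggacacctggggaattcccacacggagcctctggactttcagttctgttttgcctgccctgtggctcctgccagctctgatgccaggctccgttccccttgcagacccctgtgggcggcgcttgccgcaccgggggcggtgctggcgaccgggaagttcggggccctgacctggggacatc
The Myd88 promoter is at chr9:119340019-119340268 and that of Tlr2 at chr3:83841609-83841858, both on the minus strand.

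Tlr9 and the first Tlr1 promoter share a PU-box, 112 bases before the start in Tlr9 and 23 before it in Tlr1. Only these 2 of the 7 members hold this motif. It occurs on either strand in 23.3% of 32851 promoters of the same length, so a count of this size is near the share of all promoters. Myd88 holds an ISRE 40 bases before its start, a motif in 2.98% of promoters, and a TATA box on both strands at 160 and 164 bases, where the matches overlap. A Tlr6 promoter (chr5:64959167-64959416) holds an ISRE on the other strand in overlapping matches at 116 and 110 bases, and the other Tlr6 promoter (chr5:64960049-64960298) holds a TATA box on the other strand at 180, 150 and 109 bases. The TATA box occurs in 12.4% and the cyclic AMP response element in 1.55% of promoters. Tlr2, Tlr3, Tlr12 and the second Tlr1 promoter hold none of the 4 motifs, and the cyclic AMP response element was found in none of the 9. A match is a description of letters and says nothing about binding.

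The genes most alike to each member over the 19 mice, after removal of group means, are given next. For Tlr9 they were Sh2b3, Slc23a2 and Kdm3b (r = 0.98 each), and for Tlr1 they were Dpp4, Cd22 and Itpr3 (0.97 each); Cd22 encodes a B cell surface receptor. For Tlr2 they were Tnfrsf1a (0.94), a receptor for tumour necrosis factor, Plbd1 (0.93) and Trem1 (0.93), an activating receptor of neutrophils and monocytes. For Cd14 they were Cd300a (0.86), an inhibitory receptor of myeloid cells, Camk1 (0.84) and Cfp (0.84), which encodes properdin. The nearest to Tlr4 were Tfip11 (0.94), Tmem156 (0.93) and Gna12 (0.92), and to Tlr6 Pira1 (0.90), Tlr4 (0.88) and Tfip11 (0.87). For Tlr3 they were Lrrk1 (0.91), Etv5 (0.88) and Lynx1 (0.86), and for Tlr12 Lrrc42 (0.89), Snhg16 (0.88) and Isy1 (0.87). For Myd88 they were Snx10 (0.89), Relt (0.89) and Atp6v0c (0.86), and for Unc93b1 BC029722, Rtl6 and Ctsh, a lysosomal protease (0.89 each).

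Other genes of the pathway were followed as 69 genes in 6 lists, of which 65 passed the filter. Tlr5, Sarm1, Ifnb1 and Ch25h did not. The most abundant gene of each list was Tlr7 among the other receptors (24.2 RPKM), Ctss among co-receptors and endosomal processing genes (600), Btk among adaptors and kinases (81.3), Irf5 among transcription factors (80.9), Nfkbia among negative regulators (249) and Il1b among induced targets (70.4). Thus the protease Ctss, which cuts endosomal receptors, and the inhibitor Nfkbia had more RNA per length than Unc93b1 (204 RPKM).

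Between XYM and XYF mice 17 of these 65 genes passed, 12 higher and 5 lower, beside 15.8% of all genes, with a median of 0.11 beside 0.02. Rel, an NF-kappa-B subunit active in lymphocytes, was 1.47 higher (adjusted p = 0.00653), and Pik3ap1 (1.03, adjusted p = 0.0636) and Cd180 (0.97, adjusted p = 0.0589), a B cell relative of Tlr4, were higher too, each with 5 of 5 XYM mice above the XYF mean. The cytokine Il1b was -1.28 different (adjusted p = 0.00377) and the chemokine Cxcl2 -0.93 (adjusted p = 0.0741). All 5 XYM mice lay above every XYF mouse for Rel and below every XYF mouse for Il1b, and 4 of 5 lay below the XYF mean for Cxcl2. By list, the changes were 4 higher of 20 adaptors and kinases, 2 higher and 1 lower of 6 transcription factors, 3 higher and 1 lower of 9 negative regulators, 2 higher and 1 lower of 15 co-receptors and processing genes, 1 higher of 4 other receptors and 2 lower of 11 induced targets. Whether the lists differ from each other was not tested. Without XYF F6 the count was 10, beside 9.83% of all genes. With the length trend as a covariate it was 9, beside 5.43%, Rel was 0.61 and no longer called (adjusted p = 0.271), and Cd180 (-0.18) and Pik3ap1 (-0.28) changed sign. The call of Cxcl2 was lost in 9 alternatives, that of Cd180 in 6 and that of Pik3ap1 in 7. With 1 mouse left out, Cd180 ran from 0.71 to 1.14 and Pik3ap1 from 0.74 to 1.2. Cxcl2 ran from -1.32 to -0.6, the latter without XYF F9 (adjusted p = 0.233).

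Averaged over chromosomes, 8 of the 65 genes passed between males and females, 3 higher and 5 lower, beside 7.32% of all genes. Btk, the kinase downstream of the B cell receptor and of Myd88, was 0.71 higher in males (adjusted p = 8.32e-07) and Rel 0.69 higher (adjusted p = 0.033). The call of Rel was lost without XYM 12 (0.58, adjusted p = 0.0613) and with the length trend as a covariate (0.20, adjusted p = 0.542). Il1b (-0.81, adjusted p = 0.00327), Ikbke (-0.76, adjusted p = 3.74e-05), a kinase of the interferon branch, and Irf7 (-0.68, adjusted p = 0.00157), the factor for type I interferon downstream of Tlr9, were lower. The call of Irf7 was lost with array weights (-0.56) and without XYF F9 and XYM 9 together (-0.58), where its size fell under the fold threshold. Among XX mice 4 passed, beside 4.22% of all genes: Btk (0.69, adjusted p = 4.84e-05) and the chemokine Ccl3 (0.84, adjusted p = 0.0224) were higher in XXM, and Ikbke (-1.03, adjusted p = 5.42e-05) and Irf7 (-0.61, adjusted p = 0.0511) lower. The call of Irf7 in XX mice was lost in 5 of 34 alternatives, without XXF F1 (-0.50), XXF F4 (-0.60) or XXM 2 (-0.51) among them.

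Between XX and XY mice the pathway genes that passed were the X-linked receptors Tlr7 and Tlr8, the cytokine Il10 and chemokines. Averaged over gonadal sex 3 of the 65 genes passed, beside 1.72% of all genes, and all were lower in XX mice: Tlr8 (-1.36, adjusted p = 0.00503), Tlr7 (-1.27, adjusted p = 0.00068) and Il10 (-0.83, adjusted p = 0.0229). Tlr7 and Tlr8 are endosomal receptors for single-stranded RNA and, like Tlr9, are carried by Unc93b1. Among mice with testes 4 passed, beside 2.96% of all genes: Tlr8 (-1.70, adjusted p = 0.0267) and Tlr7 (-1.61, adjusted p = 0.00462) were lower in XXM, and Ccl3 (0.86, adjusted p = 0.0602) and Ccl4 (0.76, adjusted p = 0.0958) higher. Among mice with ovaries 2 passed, beside 1.38% of all genes: Il10 (-1.03, adjusted p = 0.076) and Tlr7 (-0.94, adjusted p = 0.0953) were lower in XXF. For genes of low level the added 1 in the log2 values shrinks a difference: by limma-voom Il10 (mean 1.67 RPKM) was -1.77 among mice with ovaries (adjusted p = 0.0922) and -1.44 in the average (adjusted p = 0.0279). Tlr8 (mean 4.19 RPKM) was -2.35 by limma-voom among mice with testes (adjusted p = 0.0368) and -1.88 in the average (adjusted p = 0.00469). Every XX mouse had less Tlr7 than every XY mouse of its gonadal sex, 5 of 5 in each, whereas for the autosomal Tlr9 the groups overlapped in both sexes. Some FCG colonies on a B6 background are known to carry a segment of the X chromosome with Tlr7 and Tlr8 on the Y chromosome, and whether these mice did was not tested here.

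Part of these XX and XY calls rested on single mice or settings. Among mice with testes, the call of Ccl4 was lost in 19 of 34 alternatives, limma-voom among them (adjusted p = 0.11), and that of Ccl3 in 7. With 1 mouse left out, Ccl4 ran from 0.65 to 0.92 and Ccl3 from 0.78 to 0.97. With the length trend as a covariate Ccl4 was 0.29 (adjusted p = 0.802), Ccl3 0.87 (adjusted p = 0.299) and Tlr8 -0.99 (adjusted p = 0.157), and none was called. Among mice with ovaries, the call of Il10 was lost in 9 of 34 alternatives and that of Tlr7 in 18. Over the alternatives the difference of Tlr7 ran from -1.07 to -0.82. That of Il10 ran from -1.12 to -0.9 with 1 mouse left out. With the length trend both stayed called, Tlr7 at -1.07 (adjusted p = 0.00833) and Il10 at -0.96 (adjusted p = 0.0435). Tlr7 also stayed called among mice with testes in that fit (-1.15, adjusted p = 0.0251). The female count of 2 became 0 without XXF F2, F4 or F5 or XYF F6 or F9, where 0.395% to 0.959% of all genes passed, and 1 without XXF F1 or F3, XXM 5, 6, 7 or 8 or XYM 13, 15 or 16. The male count of 4 became 2 without XXM 2, 5 or 6 or XYM 12 or 16, where at most 0.684% of all genes passed, and 9 without XYM 15, where 8.55% passed. The difference between female and male effects had 0 of 65 genes in limma, with 17 at an unadjusted p under 0.05, beside 2979 of all 14186 genes. The count was 8 without XXF F3 (8.44% of all genes), 5 without XYF F8 (5.28%), 5 without XYM 15 (5.7%) and 9 without XYM 9 (11.9%), so it rose as the share of all genes rose. Tlr7 in the average over gonadal sex was called under every alternative tried, with differences from -1.38 to -1.11.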

How the data were processed

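Bulk RNA of splenocytes from 19 FCG mice was sequenced 1 week after HKSP. The library sizes, inferred from the deposited values, were 11263753 to 19962022 reads. The mice came from FCG males on B6 with the transgene Tg(Sry)2Ei and the Sry deletion dl1Rlb, bred with C57BL/6J females. Alignment to mm10 (Subread) and counting (featureCounts) were done by the authors, and the values they deposited are log2(RPKM + 1), computed by the authors from these counts. Versions, annotation, strand setting and the handling of multi-mapping reads were not stated, and the study's text and its sample records name different library kits (KAPA stranded and NEBNext Ultra). Each value exceeds log2(RPKM + 1) by 0.0001, which was subtracted. Whole reads per gene were recovered from the values for 21317 of 21317 genes with a read, within 0.05 of a read. Gene symbols were set by Entrez ID through RefSeq for GRCm38.p6 (25275 of 27179 matched).

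Tests used limma 3.58.1 in R 4.3.3 on the 14186 genes that reached 0.5 RPKM in 4 or more mice (4 group means, spread moderated with a trend, Benjamini-Hochberg adjustment over all tested genes). A gene was called at an adjusted p under 0.1 and a difference of more than 1.5-fold. The 7 comparisons were XX minus XY in each gonadal sex and averaged, males minus females in each chromosome type and averaged, and the difference of the XX minus XY effect between sexes; they share groups, so their results are not independent of each other. Sample numbers run in blocks by group, with all males before all females. What these numbers order is not stated, and anything that follows them cannot be told apart from group or gonadal sex. The titles of the XXM samples alone carry an extra tag, whose meaning is not stated. Each mouse is numbered as a separate sample, and p-values measure the spread between these mice only. No mouse was left out. The largest correlation between 2 mice was 0.99, and reads of 2 mice of a group differed with a chi-square per gene of at least 21.7, far above counting noise. Other steps ran in Python 3.11.15 (matplotlib 3.10.9, scipy 1.17.1, pandas 2.3.3, numpy 2.4.6), and the recovery of reads and the tests were tested on simulated data.

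The 10 genes, the 6 pathway lists and the 11 marker lists were chosen with earlier results of these data known. Pathway genes were named when called, at most 5 per comparison in order of the size of their difference. For each of the 10 genes the 3 most alike tested genes were named, and the 250 bases before each RefSeq start were searched for motifs. Relations between genes are Pearson r, with Spearman rho beside it, after removal of group means. Each used 100000 permutations of mice within groups, with adjustment over 45 pairs, or over 120 for relations to marker sums and length trend. As alternatives, RPKM with a pseudocount of 0.1, 0.5 or 1 were used (the last is the deposited scale and repeats the first fit, so it is no test, though counts of alternatives include it), then no filter or a filter at 1 RPKM, median ratio rescaling, quantile normalization, the compared groups only, spread without a trend, array weights, an adjusted p under 0.05, no fold threshold, limma-voom on recovered reads and each mouse left out. Leaving out XYF F9 and XYM 9 together and the length trend as a covariate were added after the data were seen. No rescaling moved the median difference of all genes by more than 0.1.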

Additional observations from a re-analysis of the deposited data

Results flagged for a closer look

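In 40 sets of values, each gene in each group, the mouse farthest from the next was measured by its gap as a share of the range of the group. Chance alone marks about 1 in 20 such groups, and 2 of 40 stood apart, no more than chance gives. Tlr2 in XXM 7 was the highest of the XXM mice by a share of 0.791 of the range (log2 3.33 against 3.12 for the next mouse). Tlr12 in XYF F9 was the lowest of the XYF mice by a share of 0.857 (log2 1.51 against 2.47). The cause was not tested.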

How the results depend on the processing

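The results rest on 4 or 5 mice per group, on bulk spleen cells and on 1 time point after HKSP without an untreated group. Cell composition and length trend differed between groups, and the cause was not tested.

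Members past the thresholds are given with the share of all genes that passed. They became 1 with array weights in XXM minus XYM (Tlr9; 7.24%), 1 without a fold threshold in XX minus XY averaged (Tlr3; 6.93%), and 1 with the compared groups only (5.0%) and 1 with array weights (5.6%) in XXM minus XXF, Cd14 both times. They became 6 without a fold threshold (39.9%) and 0 with the length trend (5.43%) in XYM minus XYF, and 2 with array weights in the difference of effects (Tlr4 and Tlr9; 13.5%, against 0.0846% before). In males minus females averaged they became 1 without a filter (4.64%), 1 at an adjusted p under 0.05 (6.75%), 1 with the length trend (6.43%) and 6 without a fold threshold (38.5%). The median of the members with the length trend was 0.03 in XYM minus XYF and -0.05 in males minus females averaged.

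Pathway genes past the thresholds in XXF minus XYF (2) became 1 with a pseudocount of 0.1 (1.52% of all genes), 0 without a filter (0.671%), 1 with the compared groups only (0.62%), 0 at an adjusted p under 0.05 (0.726%), 1 without XYF F9 and XYM 9 (0.895%) and 4 with the length trend (3.63%). In XXM minus XYM (4) they became 8 with array weights (7.24%), 2 at an adjusted p under 0.05 (0.599%), 7 without a fold threshold (7.86%), 8 without XYF F9 and XYM 9 (6.18%) and 1 with the length trend (0.24%). Without a fold threshold they became 8 in XX minus XY averaged (6.93%), 11 in XXM minus XXF (9.5%), 32 in XYM minus XYF (39.9%) and 35 in males minus females averaged (38.5%), and with the length trend 7 in XXM minus XXF (5.1%) and 9 in XYM minus XYF (5.43%). In the difference of effects they became 8 with array weights (13.5%) and 3 without XYF F9 and XYM 9 (5.51%).

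Signs reversed with the length trend as a covariate for Tlr1 (0.09) and Tlr9 (0.03) in XXM minus XYM, Tlr9 in XX minus XY averaged (0.15), XXM minus XXF (-0.16) and males minus females averaged (-0.04), and Tlr4 (-0.03), Tlr6 (-0.02), Cd180 (-0.18) and Pik3ap1 (-0.28) in XYM minus XYF. Tlr9 in XXM minus XXF also reversed without XXF F2 (-0.10), XXF F3 (-0.24), XXM 7 (-0.08) or XXM 8 (-0.01), and was 0.35 without XXF F1.

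With each mouse left out, pathway counts ran from 0 (XXF F2; 0.959%) to 3 (XYF F7; 5.99%) in XXF minus XYF, from 2 (XXM 2; 0.36%) to 9 (XYM 15; 8.55%) in XXM minus XYM, from 10 (XYF F6; 9.83%) to 21 in XYM minus XYF and from 0 to 9 (XYM 9; 11.9%) in the difference of effects. Member counts ran from 0 to 1 (XYF F7, 4.33%) in XXM minus XXF. They ran from 3 to 4 in XYM minus XYF, where 9.83% to 20.9% of all genes passed. In males minus females averaged they ran from 1 (XYF F6, 5.9%) to 2 (XYM 9, 8.83%), and in the difference of effects from 0 to 2 (XYM 9, 11.9%). Related pairs ran from 5 to 12.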
